A study of Mus musculus with 34 samples.

Results

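Ehf and 9 other Ets factors, Elf3, Elf1, Ets1, Ets2, Erg, Fli1, Etv4, Etv5 and Spdef, were followed in the mouse cornea. A probe set, the group of array probes that reads 1 transcript, was taken if the annotation gave it exactly 1 gene symbol and that symbol was one of the 10. Of the 19938 genes with such a probe set, these were 10, read by 11 probe sets, since Etv5 has 2. Where a gene had several, the one with the highest mean over the whole-cornea arrays was used.

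RNA was measured on Affymetrix arrays of whole cornea from wild-type CB6 mice, with no treatment. There were 3 arrays each at E14.5, E15.5, E17.5, P3, P7, P14, P28 and 2 months, where E is the embryonic day and P the day after birth, and 2 arrays each at 6 months, 1 year, 18 months and 2 years, so 32 in all at 12 ages. Besides these there was 1 array of epithelium at P28, lifted from the cornea with dispase, and 1 of stroma at P7, cut out of sectioned eyes by laser capture. Whether the arrays of one age hold RNA of separate mice is not stated. A p-value therefore covers the spread between arrays alone, and that spread may be technical. At 2 months, replicates 2 and 3 carry the marks 1A and 1B, whose meaning is not stated.

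Ets factors are transcription factors that share a DNA-binding domain and bind sites with a GGAA core. Ehf and Elf3 belong to the epithelium-specific branch of the family, and Ehf is known for its part in the differentiation of the corneal epithelium. Erg and Fli1 are best known from vessel endothelium and blood cells, while Etv4 and Etv5 are transcribed in response to FGF and ERK signalling.

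Promoter windows, from 250 bases before to 50 bases after a gene's start, were given for 6 of the 10 members (RefSeq, build GRCm38.p6). The 4 printed here belong to members that rose between E14.5 and E15.5, so that the letters a factor of this family could read at their own genes can be seen. They are Elf3 on the minus strand at chr1:135258423-135258722, the first of 2 Elf1 starts on the plus strand at chr14:79480944-79481243, Ets2 on the plus strand at chr16:95702157-95702456, and the first of 3 Erg starts on the minus strand at chr16:95586544-95586843. Capitals mark GGAA on either strand, that is GGAA or TTCC.
Elf3: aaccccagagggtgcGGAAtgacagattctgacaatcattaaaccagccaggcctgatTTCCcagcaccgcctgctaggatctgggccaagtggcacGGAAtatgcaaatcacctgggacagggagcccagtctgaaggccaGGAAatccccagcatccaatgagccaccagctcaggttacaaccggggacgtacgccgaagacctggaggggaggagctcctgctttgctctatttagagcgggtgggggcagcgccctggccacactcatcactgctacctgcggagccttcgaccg
Elf1: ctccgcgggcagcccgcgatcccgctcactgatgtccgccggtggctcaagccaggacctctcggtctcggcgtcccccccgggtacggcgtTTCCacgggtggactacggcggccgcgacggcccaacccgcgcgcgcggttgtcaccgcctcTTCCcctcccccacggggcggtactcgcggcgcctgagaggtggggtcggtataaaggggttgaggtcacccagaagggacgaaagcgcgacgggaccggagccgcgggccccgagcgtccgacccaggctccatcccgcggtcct
Ets2: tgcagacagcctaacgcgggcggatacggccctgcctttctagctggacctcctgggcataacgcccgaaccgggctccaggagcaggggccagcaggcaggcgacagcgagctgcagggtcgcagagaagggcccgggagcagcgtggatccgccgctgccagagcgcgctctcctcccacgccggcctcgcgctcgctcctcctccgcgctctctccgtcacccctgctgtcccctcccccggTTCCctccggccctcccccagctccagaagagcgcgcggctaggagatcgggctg
Erg: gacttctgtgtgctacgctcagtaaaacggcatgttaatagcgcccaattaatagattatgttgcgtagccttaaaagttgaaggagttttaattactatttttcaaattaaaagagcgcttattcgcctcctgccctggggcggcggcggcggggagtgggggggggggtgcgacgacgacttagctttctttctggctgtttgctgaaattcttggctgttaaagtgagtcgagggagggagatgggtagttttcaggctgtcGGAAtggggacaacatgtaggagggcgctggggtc

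The longer strings GGAAG and CCGGAAG were searched first, on both strands, and GGAA, which GGAAG and CCGGAAG contain, was added after their counts had been seen. GGAAG occurred 0 times in the Elf3 window, 1 time in the Elf1 window, 0 times in the Ets2 window and 0 times in the Erg window shown, and it was in 6 of the 10 member windows in all and in 71.4% of all 32851 windows. CCGGAAG occurred in none of the 10 windows of members and in 8.86% of all windows. GGAA occurred 4 times in Elf3, 2 times in Elf1, 1 time in Ets2 and 1 time in Erg, and 96% of all windows hold it. These matches describe letters in a window and are not sites of binding.

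The levels below are array intensities on a linear scale, and differences are on a log2 scale after adding 16 to the intensity. Genes were tested when 2 or more of the 32 whole-cornea arrays read them above that array's median. There were 12998 such genes, 9 of the 10 members among them, since Etv4 lay below the median on all 32 arrays. A change was called at an adjusted p under 0.05 (limma, Benjamini-Hochberg over all genes tested) with a log2 difference of at least 1. Several features of the arrays touch the results. At E14.5, 2 of the 3 arrays were rich in lens genes. Blood genes, such as the embryonic globins Hba-x and Hbb-y, had summed intensities of 22816 to 33178 at E14.5, with 2214 the highest sum at any later age, and 4 of 4 tested were lower at E15.5 than at E14.5, with a median difference of -5.92. Every comparison with E14.5 rests on these arrays, and the part of blood or lens in it was not tested. In all, 9 of the 32 arrays were rich in lens, muscle or retina genes. Leaving these out kept replicate 1 alone at E14.5, replicate 2 alone at E17.5 and no array of 6 months. The part of smaller groups in a call lost or gained that way was not tested. Each of 8 unnamed probe sets read at least 1501 at every age up to P14 (18 arrays) and at most 12.8 from P28 on (14 arrays), so age and array set cannot be told apart between P14 and P28. In whole tissue, fewer cells of a type and less RNA per cell cannot be told apart either.

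Over the 12 ages 7 of the 9 tested members changed, beside 40.6% of all genes (moderated F-test). Ets1, among the 7, was tested only because of the ages where it is highest. The median range between a member's highest and lowest age mean was 1.98, against 0.87 over all genes. Ehf had the widest range, 6.66, and the 69th highest F of the 12998 genes (adjusted p = 1.05e-14). Elf3 followed with a range of 4.87 (adjusted p = 3.06e-11) and Erg with 4.71 (adjusted p = 1.21e-06). The ranges were 2.28 for Elf1, 1.98 for Ets2, 1.84 for Fli1 and 1.14 for Ets1. The Ets1 range was under the size limit with an offset of 64 (0.92), after quantile normalization (0.98) and without 6 months replicate 2 (0.99). Etv5 and Spdef were not called, with ranges of 0.54 and 0.23.

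**Figure D1:**
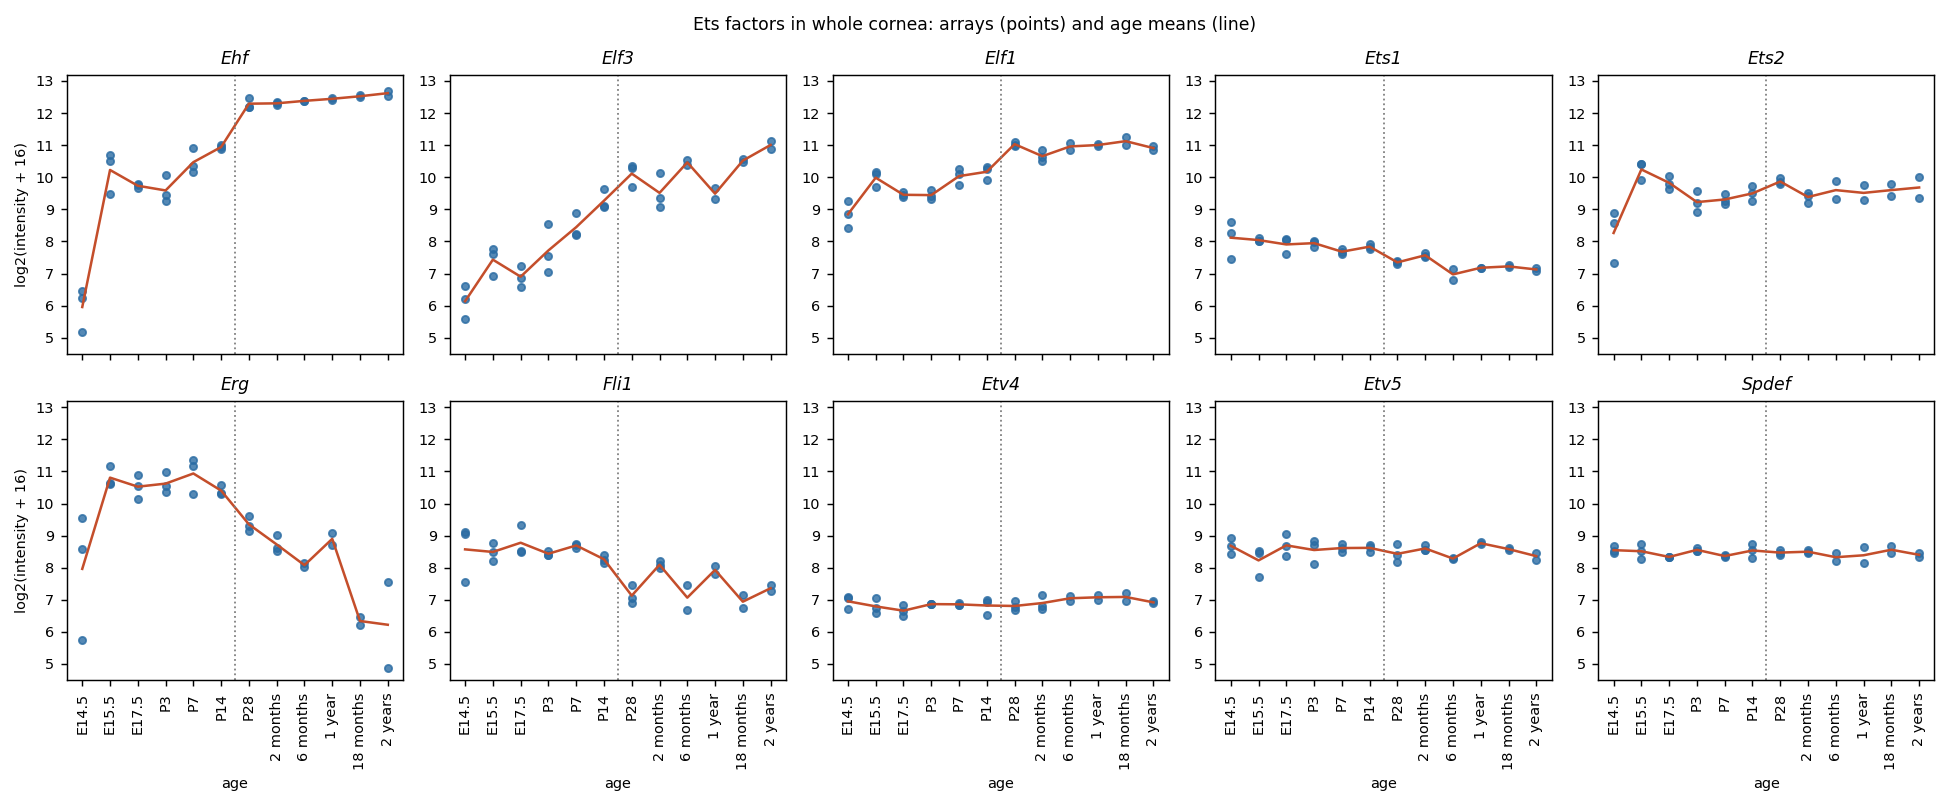
Intensity of the 10 Ets factors, as log2(intensity + 16), on each of the 32 whole-cornea arrays (points) with the mean of each age (line), from E14.5 to 2 years. The dotted line marks the change of array set between P14 and P28; Ehf spans 6.66 and Spdef 0.23 on this scale.

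Ehf lay below the array median on all 3 E14.5 arrays and above it on the other 29 arrays. Its intensity was 698, 1641 and 1435 at E15.5, against 59.7, 20.0 and 71.9 at E14.5. All 3 E15.5 arrays lay above all 3 E14.5 arrays, with a log2 difference of 4.27 (SE 0.27, adjusted p = 2.18e-11). At E17.5 it read 874, 793 and 842, at P3 1056, 678 and 597, and at P7 1120, 1920 and 1281. These ages overlap with E15.5. All 3 P7 arrays lay above all 3 P3 arrays, with a difference of 0.88 (SE 0.27, adjusted p = 0.0394) that was under the size limit. At P28 it read 4699, 5675 and 4678, against 1863, 1940 and 2051 at P14, a difference of 1.35 (SE 0.27, adjusted p = 6.61e-04). From P28 onward the 14 arrays lay between 4678 and 6631. The F-test over those 6 ages gave a range of 0.33 (adjusted p = 0.915). That test pools the spread of all ages, and the log2 SD was 0.69 at E14.5 and 0.65 at E15.5. From P28 onward the SD was 0.0016 (6 months) to 0.16 (P28), so the test says little on small adult changes. The log2 means rose with each age, from 12.29 at P28 to 12.62 at 2 years. Arrays of 2 months, 6 months, 1 year and 18 months did not overlap. P28 overlapped with 2 months to 1 year, and 18 months with 2 years. A trend with age was not tested. At 2 months Ehf stood 6.35 above E14.5 (SE 0.27, adjusted p = 3.475e-15), a comparison that shares the E14.5 arrays with the one at E15.5.

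Every array of P28 to 2 years lay above every array of E14.5 to P14 for Ehf and for Elf1, 2 of the 9 tested members, where 7.86% of all genes had arrays that did not overlap and 5.39% had the later arrays above. The Ehf arrays ran from 4678 to 6631 in the later set and from 20.0 to 2051 in the earlier one. The Elf1 arrays ran from 1432 to 2433 in the later set and from 328 to 1261 in the earlier one. The summed intensity of 8 corneal epithelium markers, which include Krt12, moved with Ehf at some steps and not at others. It was 20958 to 32687 at E15.5, against 1888 to 6786 at E14.5, and 59341 to 65678 at P28, against 38119 to 50992 at P14. At P7 it was 33775 to 43630, above every E15.5 array, while Ehf overlapped between these ages. At 2 months it was 49124 to 54379, below every P28 array, while the Ehf log2 mean was 12.30, against 12.29 at P28. All 8 markers changed over the 12 ages and 8 of 8 were higher at E15.5 than at E14.5. At P28 against P14, where Ehf was called, 0 of the 8 were, with differences from -0.64 (Krt14) to 0.87 (Tkt) and a median of 0.58, and over P28 to 2 years 0 of the 8 were called. Their part in the Ehf result was not tested.

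Elf3, the other epithelium-specific factor, was lowest at E14.5 and highest at 2 years, as was Ehf. It read 105, 180 and 200 at E15.5, against 81.6, 32.1 and 58.1 at E14.5, with a difference of 1.30 (SE 0.33, adjusted p = 0.00357). That call was lost with an offset of 64 (0.89, adjusted p = 0.0132). It was also lost without the arrays rich in other tissues (1.08), which leaves E14.5 replicate 1 alone at its age. At P14 it read 774, 537 and 521, against the E15.5 values above, and no P14 array overlapped them. The difference of 1.84 (SE 0.33, adjusted p = 3.33e-04) made Elf3 the 1 member called there, higher, where 5.19% of all genes were called and 3.21% were higher. Ehf differed by 0.72 between the same ages (adjusted p = 0.0707), and whether Elf3 and Ehf differ in this was not tested.

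At P28 Elf3 stood 0.84 above P14 (adjusted p = 0.0533), a difference called without P14 replicate 1 (1.02, adjusted p = 0.0352), without P28 replicate 3 (1.06, adjusted p = 0.0339) and with array weights (1.08, adjusted p = 9.91e-04). After P28 it varied between ages. It read 1232, 1303 and 809 at P28, 1107, 518 and 633 at 2 months, 1481 and 1314 at 6 months, 621 and 794 at 1 year, 1489 and 1411 at 18 months, and 1865 and 2232 at 2 years. Both arrays of 2 years lay above every other array. The F-test over P28 to 2 years called 3 members, Elf3, Erg and Fli1, beside 6.77% of all genes. With 2 months replicates 2 and 3 averaged, it did not call Elf3 (adjusted p = 0.0623). For Elf3 the range was 1.52 (adjusted p = 0.0242), and the call was lost without 2 months replicate 2 (adjusted p = 0.0658), 2 months replicate 3 (adjusted p = 0.0582), 1 year replicate 1 (adjusted p = 0.0521), 2 years replicate 1 (adjusted p = 0.0509) or 2 years replicate 2 (adjusted p = 0.072).

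Elf1, which is transcribed in many tissues, rose at E15.5 and stood higher again from P28. It read 805, 1082 and 1141 at E15.5, against 447, 596 and 328 at E14.5, a difference of 1.14 (SE 0.17, adjusted p = 1.51e-05). Without E14.5 replicate 3 this was 0.93 and with array weights 0.88, under the size limit. At P28 it read 2191, 1988 and 2055, against 1261, 955 and 1219 at P14. The difference of 0.86 had an adjusted p of 5.65e-04 and did not reach the size limit. Across the 12 age means Elf1 had a Pearson r of 0.95 with Ehf and Ehf of 0.91 with Elf3, over points that share their arrays. Over the 6 ages of E14.5 to P14 these were 0.92 and 0.82, and over the 6 ages of P28 to 2 years 0.34 and 0.67.

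Ets2 was highest at E15.5. It read 952, 1344 and 1336 there, against 460, 362 and 145 at E14.5, with no overlap and a difference of 1.98 (SE 0.28, adjusted p = 5.77e-06). At 2 months it read 575, 674 and 715, which is 1.12 above E14.5 (SE 0.28, adjusted p = 0.00187). That call was lost without E14.5 replicate 3 (0.66, adjusted p = 0.0243) and with the compared ages alone (adjusted p = 0.0581). It was also lost with an offset of 64 (0.99), with array weights (0.91) and without the arrays rich in other tissues (0.58). The last leaves E14.5 replicate 1 alone at its age.

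Between E14.5 and E15.5, then, 5 of the 9 tested members were higher at E15.5 (Ehf, Elf3, Elf1, Ets2 and Erg) and 0 lower, beside 10.4% of all genes called and 7.35% higher. The median of the 9 was 1.14, against 0.01 over all genes. At 2 months against E14.5, 4 were higher (Ehf, Elf3, Elf1 and Ets2) and 0 lower, beside 16.3% of all genes called and 10.3% higher. Over E14.5 to P14 the F-test called the 5 members named for E15.5, beside 19.6% of all genes. Without the 3 E14.5 arrays, a choice made after seeing the data, 3 of them were still called, and Elf1 (range 0.73) and Erg (range 0.53, adjusted p = 0.748) were not. Without the arrays rich in other tissues Erg was not called either (range 1.39, adjusted p = 0.415).

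**Figure D2:**
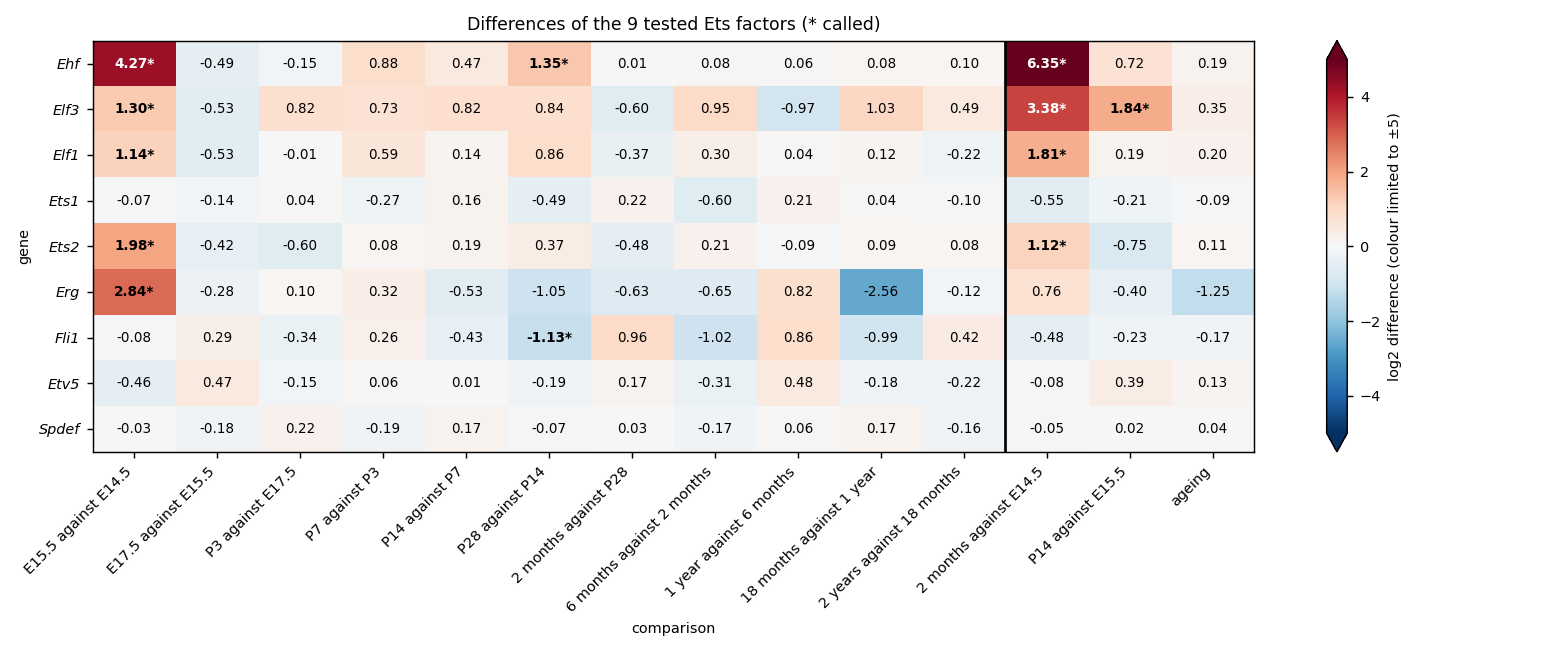
Log2 differences of the 9 tested Ets factors at the 11 steps between neighbouring ages, and right of the black line in 3 wider comparisons, where ageing is the mean of 1 year, 18 months and 2 years minus that of 2 and 6 months. Asterisks mark called differences; 5 stand in the first column, E15.5 against E14.5.

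Erg was high from E15.5 to P14 and low in the oldest corneas. It read 1553, 1589 and 2262 at E15.5, against 731, 369 and 38.0 at E14.5, a difference of 2.84 (SE 0.61, adjusted p = 7.39e-04). The E14.5 arrays spread widely, and the Erg call was lost with the compared ages alone (adjusted p = 0.0568). It was also lost without the arrays rich in other tissues (1.36), which leaves E14.5 replicate 1 alone at its age. From E15.5 to P14 its lowest array read 1102 and its highest 2589. It then read 610, 553 and 766 at P28, 354, 503 and 378 at 2 months, 265 and 244 at 6 months, 524 and 406 at 1 year, 57.9 and 72.7 at 18 months, and 13.4 and 174 at 2 years. Every array of 18 months and 2 years lay below every other array from P28 on, and the F-test over P28 to 2 years gave a range of 3.13 (adjusted p = 0.00499). The difference of P28 against P14 was -1.05 (adjusted p = 0.196), and it was called with the compared ages alone (adjusted p = 0.00181) and with array weights (-1.03, adjusted p = 0.0159). Every P28 array lay below every P14 array. The test pools the spread of all ages, and the log2 SD of Erg was 1.97 at E14.5 and 1.90 at 2 years, against 0.15 at P14 and 0.24 at P28. At 2 months against E14.5 Erg differed by 0.76 (adjusted p = 0.319), with no stable direction: it was called without E14.5 replicate 1 (1.55, adjusted p = 0.0363), and was negative without E14.5 replicate 3 (-0.34, adjusted p = 0.577) and without the arrays rich in other tissues (-0.73, adjusted p = 0.443).

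Ageing, with the ages of 1 year and over averaged and set against 2 and 6 months, called 0 of the 9 members, beside 0.677% of all genes, and 1 member, Erg, had an unadjusted p under 0.05 (limma). Its difference was -1.25 (SE 0.45, adjusted p = 0.121), with an SE that pools the spread of all ages, E14.5 among them. It was called with array weights (-1.22, adjusted p = 0.0174), without E14.5 replicate 3 (adjusted p = 0.0198) and without 2 years replicate 2 (-1.70, adjusted p = 0.0227), while without 2 years replicate 1 it was -0.80 (adjusted p = 0.385).

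Markers of keratocytes, the cells of the corneal stroma, moved with Erg at some ages and not at others. The summed intensity of 6 of them (Kera, Lum, Dcn, Col1a1, Col1a2 and Ptgds) was 38028, 38337 and 44469 at E15.5, against 9327, 6225 and 2216 at E14.5. At 2 years it was 2751 on the array where Erg read 13.4 and 10587 on the array where Erg read 174. At 18 months the sums were 4341 and 6208, and at 1 year 16413 and 11704. At 6 months they were 4481 and 8164, near those of 18 months. Erg, however, read 265 and 244 at 6 months, against 57.9 and 72.7 at 18 months. At 6 months replicate 1 was rich in retina genes (median log2 3.24 above that of the 32 arrays) and replicate 2 in lens genes (3.27). No array of 18 months was rich in either, and the part of this in the contrast was not tested. The 10 vessel endothelium markers summed to 2112 to 4398 at E14.5, 2243 to 4089 at E15.5, 3246 to 6811 at E17.5 and 3206 to 3680 at P3. Their sums were 1738 to 1850 at P7, the age with the highest Erg mean. After that they were 1922 to 2362 at P14, 1371 to 1410 at P28 and 1348 to 1410 at 2 years. Of the 7 vessel markers tested 6 changed over the 12 ages, 4 were lower at 2 months than at E14.5, and 0 were called at P28 against P14 or at E15.5 against E14.5. Over P28 to 2 years 5 of the 6 keratocyte markers and 1 of the 7 tested vessel markers changed. The part of either list in the Erg result was not tested.

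**Figure D3:**
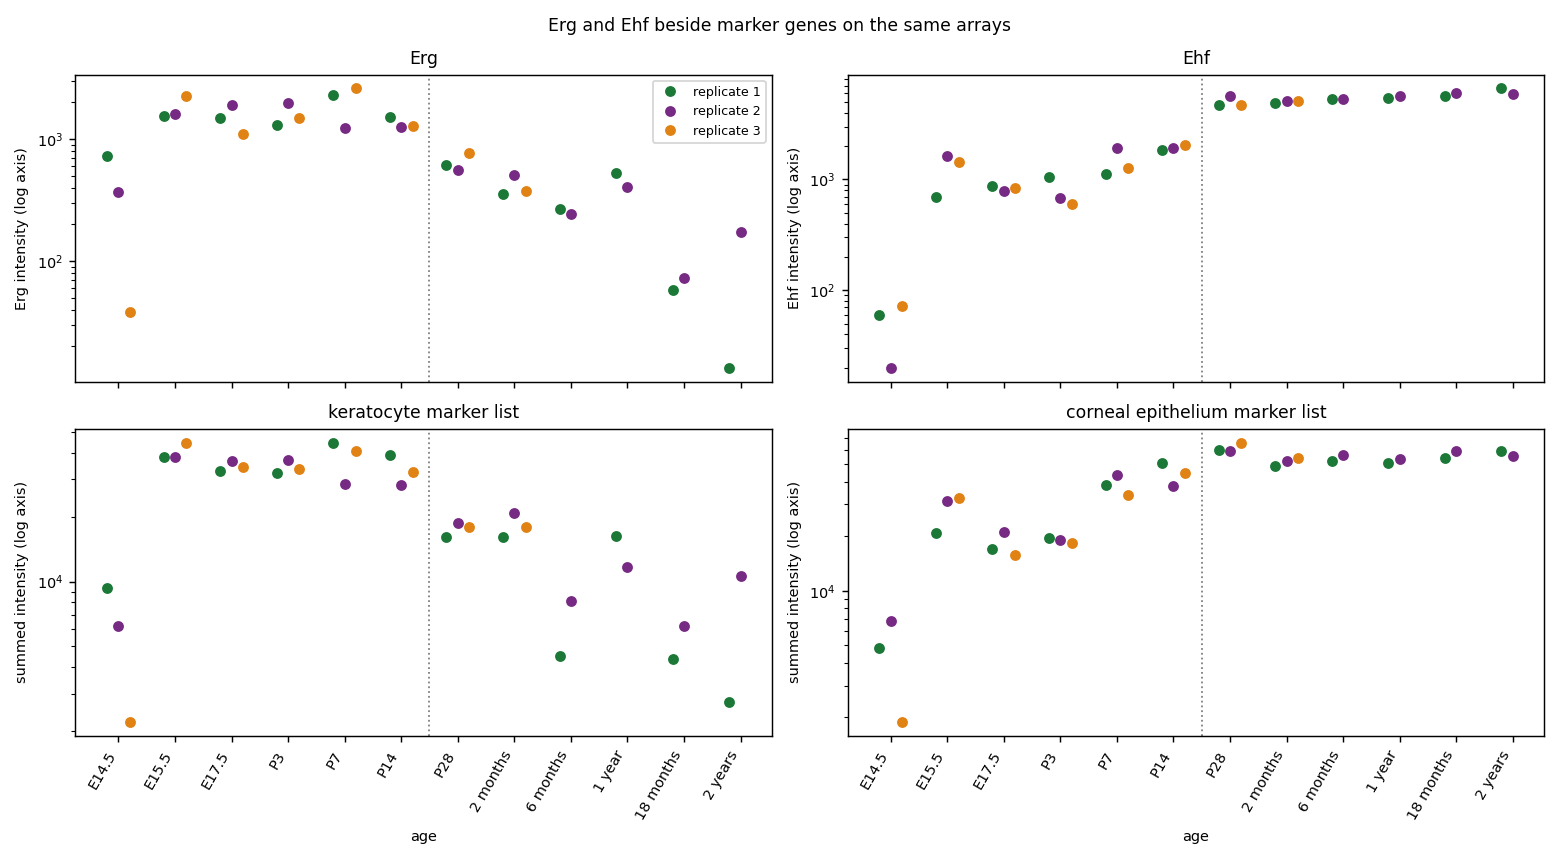
Intensity of Erg above the summed intensity of 6 keratocyte markers (left), and of Ehf above that of 8 corneal epithelium markers (right), on each whole-cornea array by age, on log axes. Colours are replicate numbers, and the dotted line marks the change of array set; the E14.5 array with the lowest Erg, 38.0, also has the lowest E14.5 keratocyte sum, 2216.

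Fli1, the closest relative of Erg, stood lower after P14. It read 158, 117 and 103 at P28, against 289, 320 and 267 at P14, a difference of -1.13 (SE 0.28, adjusted p = 0.00361). With Ehf higher and Fli1 lower, 2 of the 9 members were called between these ages, beside 7.65% of all genes, with 4.15% higher and 3.5% lower. The Fli1 call was lost with an offset of 64 (-0.91). Against E14.5, Fli1 at 2 months differed by -0.48 (adjusted p = 0.173), and was called without the arrays rich in other tissues (-1.06, adjusted p = 0.001). At 2 months it read 277, 256 and 239, 0.96 above P28 (adjusted p = 0.0174), under the size limit. Later it read 86.9 and 159 at 6 months, 208 and 249 at 1 year, 125 and 91.2 at 18 months, and 138 and 159 at 2 years. With 2 months replicates 2 and 3 averaged, the F-test over P28 to 2 years did not call Fli1 (adjusted p = 0.0645). With all arrays it gave a range of 1.15 (adjusted p = 0.0279). Leaving out any of 5 single arrays ended that call: 2 months replicate 1 (adjusted p = 0.0673), 2 (adjusted p = 0.0712) or 3 (adjusted p = 0.0571), 1 year replicate 2 (adjusted p = 0.0505) or 18 months replicate 2 (adjusted p = 0.0617).

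Ets1 lay above the array median on 6 of the 32 arrays, 2 each at E14.5, E15.5 and E17.5, and below it on every array from P3 on. It was tested only because of the ages where it is highest, so its call over the 12 ages says little, and its later values lie in the lower range of the arrays. Its arrays of P28 to 2 years ran from 95.3 to 184, against 161 to 375 from E14.5 to P14, so the sets overlapped. It differed by -0.49 at P28 against P14 (adjusted p = 0.0343) and by -0.55 at 2 months against E14.5 (adjusted p = 0.0125), both under the size limit.

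The FGF-responsive Etv4 and Etv5 and the goblet cell factor Spdef gave no call by the probe sets used. Etv4 read 73.7 to 133 on the whole-cornea arrays, and with no filter its F-test gave a range of 0.43 (adjusted p = 0.322). Etv5 read 192 to 510 (adjusted p = 0.366). Its other probe set was called over the 12 ages, with a range of 1.05 (adjusted p = 0.00837), so the 2 probe sets of Etv5 disagree. Spdef read 265 to 416 (adjusted p = 0.626). At the other 9 steps between neighbouring ages 0 of the 9 members were called, while 18 of 81 tests had an unadjusted p under 0.05 (limma). The share of all genes at that unadjusted p was not counted. An adjusted p under 0.05 was reached in 3 of the tests, all under the size limit. They were Ehf (0.88) and Elf1 (0.59) at P7 against P3, and Fli1 (0.96) at 2 months against P28. Of all genes, 0.569% were called at E17.5 against E15.5, 1.89% at P3 against E17.5, 1.98% at P7 against P3, 0% at P14 against P7 and 2.12% at 2 months against P28. The later steps called 1.25% at 6 months, 0.208% at 1 year, 0.854% at 18 months and 0.446% at 2 years, each against the age before.

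In the separated layers Ehf differed most among the members. It read 4331 in epithelium and 871 in stroma, a log2 difference of 2.29. It was the 1 of 8 members above the array median on either array that reached 4-fold, beside 1.94% of all genes, with 0.576% higher in epithelium. Elf3 read 747 in epithelium and 258 in stroma, and Elf1 1310 in epithelium and 608 in stroma, differences of 1.48 and 1.09. Erg read 406 in epithelium and 735 in stroma, a difference of -0.83, and Fli1 300 in epithelium and 534 in stroma, a difference of -0.80. Ets2 (0.14), Etv5 (0.01) and Spdef (-0.13) read nearly alike on the 2 arrays, and Ets1 and Etv4 lay below the median on both. The other Etv5 probe set read 539 in epithelium and 313 in stroma.

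With 1 array a layer there is no replicate check, and layer and age differ together. The stroma array also held other tissues: it read 2185 for Krt12, a keratin of the corneal epithelium, 6898 for the lens crystallin Cryaa and 3538 for the muscle gene Tnnt3. Its epithelium markers summed to 17040, against 52731 in epithelium, and its keratocyte markers to 22567, against 2997 in epithelium. Low values are also raised on both layer arrays, where the lowest intensity was 41.8 and 42.6. Against the mean of the 3 whole-cornea arrays of P28, the epithelium read -0.21 for Ehf, -0.54 for Elf3 and -0.63 for Erg, and 1.17 for Fli1. Against that of the 3 whole-cornea arrays of P7, the stroma read -0.68 for Ehf, -0.35 for Elf3, -1.38 for Erg and 0.41 for Fli1.

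**Figure D4:**
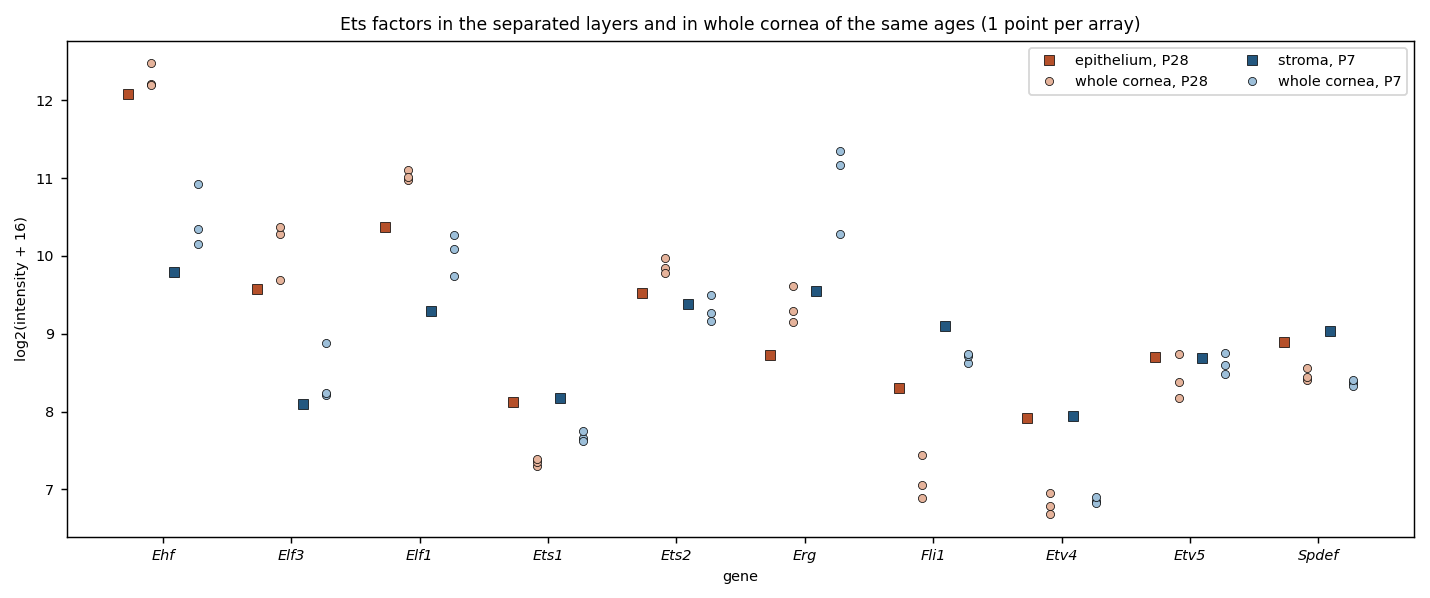
The 10 Ets factors, as log2(intensity + 16), in epithelium of P28 and stroma of P7 (squares, 1 array each) beside the whole-cornea arrays of the same ages (circles). Ehf reads 12.09 in epithelium and 9.79 in stroma, and Etv4 lies near 7.9 on both layer arrays.

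Genes whose age means followed each member most closely were ranked by Pearson r over the 12 ages, as a description. Those of Ehf were Capn1, Plet1, Dsc3, Ppl and Serpinb5, with r between 0.992 and 0.994. Dsc3 and Ppl are parts of desmosomes and of the cornified envelope. Those of Elf3 were Capn5, Slc34a2 and Lpcat4, of Elf1 Golga4, Cd44 and Erbb3, of Erg Lztfl1, Col6a3 and Srpx, and of Fli1 Tpm1, Tmem47 and Cald1. Those of Ets2 were Hs3st3b1, Papss1 and Srpr, and of Ets1 Gprc5b, Adam22 and Plxna4. Over the 32 single arrays, 1 of the 5 genes nearest to Ehf stayed in its top 5. By Spearman rho over the 12 ages 0 of the genes named here stayed among the nearest of any member, and the 5 of Ehf ranked between 318 and 988. Ehf and Erg had an r of 0.94 over the 6 ages of E14.5 to P14 and of -0.88 over the 6 ages of P28 to 2 years. The first r includes E14.5, where the log2 mean was 5.96 for Ehf and 7.96 for Erg. From E15.5 to P14 the means ran from 9.59 to 10.94 for Ehf and from 10.40 to 10.94 for Erg. Among those ages Ehf was highest at P14, where Erg was lowest, and an r without E14.5 was not computed.

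Of 16 other Ets factors 15 had a probe set and 11 were tested, of which 6 changed over the 12 ages, beside 40.6% of all genes. Etv3 averaged 524 ± 155 at E15.5 and 213 ± 76.6 at E14.5 (SD, n = 3 each), a difference of 1.25 (limma adjusted p = 1.41e-04), and Elf4 averaged 386 ± 54.0 at E15.5 and 165 ± 39.8 at E14.5. In that comparison 2 of the 11 were called, 2 higher and 0 lower, beside 10.4% of all genes called and 7.35% higher. Etv1 fell to 125 ± 68.1 at 2 months, against 462 ± 105 at E14.5 (SD, n = 3 each), by 1.87 on the log2 scale (limma adjusted p = 8.83e-04). Between these ages 2 of the 11 were called, 1 higher and 1 lower, beside 16.3% of all genes. The median of the 11 there was 0.37, against 0.01 over all genes.

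Of 23 genes of ERK feedback and FGF signalling 20 were tested and 12 changed over the 12 ages, beside 40.6% of all genes. Dusp6, a phosphatase that acts on ERK, averaged 1132 ± 263 at P14 and 321 ± 120 at E15.5 (SD, n = 3 each). Egr1 and Fgf10 rose between the same ages while the receptor Fgfr1 fell. At P14 against E15.5, 4 of the 20 were called, 3 higher and 1 lower, beside 5.19% of all genes. The median of the 20 there was 0.06, against -0.03 over all genes. Il17rd, an inhibitor of FGF signalling, averaged 228 ± 43.1 at 2 months and 956 ± 156 at E14.5 (SD, n = 3 each). Over the same comparison 3 of the 20 were called, Ier3 and Fgf10 higher and Il17rd lower, beside 16.3% of all genes.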

How the data were processed

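The values deposited by the authors are linear intensities, 1 for each probe set on an array. The submitters' processing notes name PLIER and Affymetrix Expression Console 1.1. RNA was amplified with the NuGEN Ovation V2 system per the labels' protocols; the genome build behind the probe annotation is not given in the sources used here. Of 35557 probe sets on 34 arrays, 21789 had 1 symbol. The 10 members, the lists and the tests were chosen with earlier results of these data known.

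Values were used as log2(intensity + 16), with no further normalization. With limma 3.58.1 (R 4.3.3), 1 mean per age was estimated from the 32 arrays of whole cornea (20 residual degrees of freedom), and tests were two-sided. The 2 layer arrays entered no fit. The scripts were checked on simulated data. Precision is limited by the 2 or 3 arrays of each age. Named genes are the members, members of the lists, and the 5 (Ehf) or 3 (other called members) genes with the highest r over the 12 ages. Figures and tables were made with Python 3.11.15. Alternatives were other offsets, filters, normalizations, array weights, a replicate block, single arrays left out and the arrays rich in other tissues left out.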

Additional observations from a re-analysis of the deposited data

How the results depend on the processing

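There were 3304 alternative values of member results over the whole-cornea arrays, at most 47 for each result. Of these, 3231 kept their direction and side of the threshold, 33 lost a call, 13 gained one and 27 turned sign. The turned signs fell in 12 comparisons of a member, 0 of which had an adjusted p under 0.05 (limma) as reported. The members called over P28 to 2 years were 1 instead of 3 after quantile normalization. They were also 1 with 2 months replicates 2 and 3, which carry 1A and 1B, averaged. At E15.5 against E14.5 they were 3 instead of 5 without the arrays rich in other tissues, and over E14.5 to P14 3 instead of 5 without the 3 E14.5 arrays, added after seeing the data. At P28 against P14 they were 1 with an offset of 64, 4 with array weights and 4 with no size limit, instead of 2. With ageing there was 1 with array weights, instead of 0. At the other 9 steps there were 1 with an offset of 1, 1 with arrays centred on their medians, 2 with array weights, 2 with the compared ages only and 3 with no size limit, instead of 0. In the layers 3 members reached a 2-fold limit, and 0 reached 4-fold in epithelium against whole cornea of P28, added after seeing the data. The cause was not tested.

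Leaving out each array in turn gave 6 to 7 members over the 12 ages, 5 to 5 over E14.5 to P14, 1 to 3 over P28 to 2 years, 3 to 5 at 2 months against E14.5, 1 to 1 at P14 against E15.5, 4 to 5 at E15.5 against E14.5, 2 to 3 at P28 against P14, 0 to 1 with ageing and 0 to 2 at the other steps. An age left with 1 array is assumed to vary like the others. With no size limit the genes called numbered 10382 over the 12 ages, 7057 over E14.5 to P14, 2576 over P28 to 2 years, 5893 at 2 months against E14.5, 2454 at P14 against E15.5, 4737 at E15.5 against E14.5, 4144 at P28 against P14 and 536 with ageing. With ageing they were 52 with an offset of 64, 57 without 1 year replicate 2 and 53 without 2 years replicate 1, instead of 88, and over E14.5 to P14 they were 1357 without the E14.5 arrays, instead of 2550.

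With the replicate number as a block, 7 members were called over the 12 ages, 5 over E14.5 to P14 and 3 over P28 to 2 years, and no call of a member changed. Deviations of the 160 same-numbered pairs of arrays correlated between -0.435 and 0.4, with a median of -0.012, and 7 of 32 arrays correlated best with their own number.

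The signs that turned were these. Without the arrays rich in other tissues, 2 months against E14.5 gave -0.73 for Erg and 0.0996 for Etv5, P14 against E15.5 gave -0.0752 for Spdef and P28 against P14 gave 0.0425 for Spdef. Array weights gave Spdef -0.0164 at P14 against E15.5 and 0.0434 at E15.5 against E14.5. Quantile normalization gave Ets1 0.0078 at E15.5 against E14.5, and the mean of its probe sets gave Etv5 0.01 at P28 against P14. With single arrays left out, 2 months against E14.5 ran from -0.34 to 1.55 for Erg, from -0.205 to 0.0433 for Etv5 and from -0.0969 to 0.0135 for Spdef. E15.5 against E14.5 ran from -0.40 to 0.17 for Ets1, from -0.58 to 0.18 for Fli1 and from -0.15 to 0.0912 for Spdef. For Spdef, P14 against E15.5 ran from -0.10 to 0.14 and P28 against P14 from -0.18 to 0.0425. Ageing ran from -0.0306 to 0.24 for Ets2, from -0.36 to 0.0227 for Fli1 and from -0.0474 to 0.12 for Spdef. The cause was not tested.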
